A study of Mus musculus with 20 samples.

Results

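The comparison set 9 single cells sorted as CD150-positive against 7 single CD150-negative cells that carried reads of red cell precursor genes, 16 of the 20 cells of the series. All 20 cells came from bone marrow of C57BL/6J mice and all were sorted as lineage-negative and cKit-positive. The 9 cells titled cd150plus were also gated as CD150-positive and CD48-negative (CD150plus cells below). The 11 cells titled cd150minus were gated as CD150-negative, with no CD48 gate in the label. Of these 11, the 7 with over 0.5% of their gene reads in erythroid genes (C6, C9, C10, C12, D4, D5 and D8) are called erythroid-type cells, and D3, D9, D11 and D12 were left out. No treatment, genotype, age or animal is named in the labels. Each cell was 1 Quartz-Seq library, in which the polyadenylated RNA of a single cell is copied and amplified by PCR without molecular identifiers.

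The erythroid-type cells were selected on measured values, namely reads of Car1, Klf1, Ermap, Epor, Gata1 and similar genes, and the comparison was proposed after earlier results of these data were known. All differences below are therefore descriptions. With no animal named, each group counted as 1 sample, cells were not treated as replicates, and no test was made. The lowest erythroid share among the 7 was 1.16% in D4, and the highest among the 4 left-out cells was 0.309% in D3. The CD150plus cells lay between 0.0432% and 0.340%. The labels give codes with the letters A and B to CD150plus cells only and C and D to CD150-negative cells only, so the sort cannot be told apart from whatever the letters stand for.

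Blood stem cells sit at the top of the lineage-negative, cKit-positive compartment, divide rarely and are enriched by CD150, the product of Slamf1. Red cell progenitors descend from them, come to depend on the transcription factors GATA1 and KLF1 and on the erythropoietin receptor, divide fast, and build up iron, heme and protein synthesis. They also part from the white cell lineages, which keep the factor PU.1 and a motile, actin-rich cell body.

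The group labels were checked against the markers, which the rule used in part. Angpt1, the angiopoietin 1 gene of stem cells, had reads in 9 of 9 CD150plus cells and, at equal depth, in none of the 7 erythroid-type cells. Car1, the carbonic anhydrase of erythroid progenitors, ranged from 1914 to 17062 CPM (read counts scaled to 1000000 gene reads a cell) in the 7 cells and reached 4.55 CPM in 1 of 9 CD150plus cells. Klf1 had reads in 7 of 7 erythroid-type cells and in 1 CD150plus cell, B4, at 306 CPM against 461 to 618 CPM. Mecom, a stem cell transcription factor, had reads in 7 of 9 CD150plus cells, up to 1162 CPM, and in 1 erythroid-type cell, C9, at 45.5 CPM. Of the gate genes, Kit ranged from 111 to 1530 CPM in CD150plus cells and from 59.1 to 202 CPM in erythroid-type cells. Slamf1 had reads in 3 of 9 and 0 of 7 cells, and Cd48 in B3 alone (244 CPM), a cell sorted as CD48-negative. As genes of the rule and of the gate these are no findings. Of the defining markers of other cell types, Mpo, Ctsg, Dntt, Il7r, Rag1, Cd79a and Mcpt8 were at 0 reads in all 16 cells. Prtn3, a granule protease of granulocyte precursors, had reads in 7 of 9 CD150plus cells, up to 345 CPM, and Elane in 1. Cpa3 (71.2 CPM), Kdr (47.0 CPM) and Cdh5 (1.52 CPM) were each read in 1 CD150plus cell, and Ms4a2 in 1 erythroid-type cell (15.2 CPM). Of the megakaryocyte markers, Itga2b had reads in 6 of 9 CD150plus cells, up to 776 CPM, Pf4 and Gp9 in 5 each and Gp1bb in 3. Itga2b and Gp9 were also read in 2 erythroid-type cells each. The 26 listed neutrophil and monocyte genes held 0.0147% to 0.1486% of gene reads in CD150plus cells and 0.0158% to 0.0794% in erythroid-type cells, and their part in the results was not tested.

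Total gene reads ran from 660007 to 3722713 in CD150plus cells and from 996440 to 5776125 in erythroid-type cells. Levels were compared on 2 scales. At equal depth, each cell was thinned to 660007 gene reads, where 1 read is 1.52 CPM, and levels and reads below are on this scale unless said otherwise. Per ERCC read, gene reads were divided by the reads of the spike-in RNA added to every cell. The 2 scales differ because the erythroid-type cells held more gene reads for each spike-in read, 109.27 to 302 with a median of 227, against 22.3 to 109.00 with a median of 68.1. The ranges only just parted, between C6 and A10, and the means of 203 and 66.8 stood 3.03-fold apart. More RNA per cell and a smaller recovery of spike-in cannot be told apart here. Unaligned reads made up 8.17% to 80.2% of the reads in CD150plus cells and 2.49% to 16.8% in erythroid-type cells, and 4758 to 8693 genes had a read at equal depth in the former against 5461 to 8877 in the latter. The part of these differences in the results below was not tested.

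**Figure D1:**
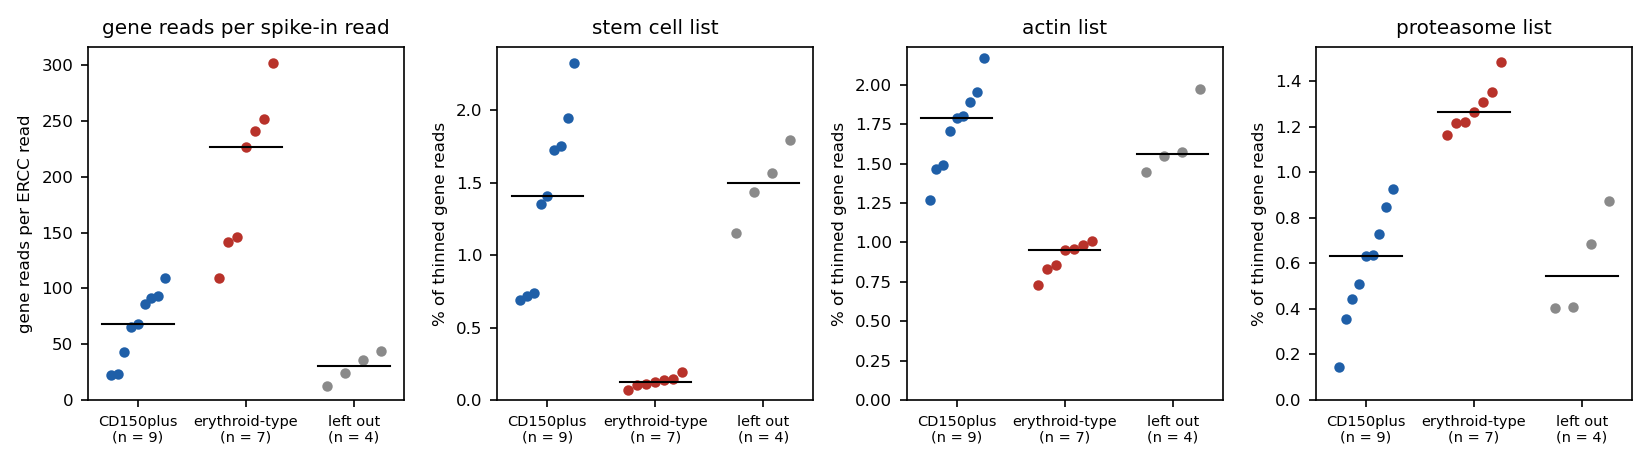
Each point is 1 cell, the horizontal line is the median of its group, and the 4 left-out CD150-negative cells are in grey. The first panel gives gene reads per ERCC read, and the other panels give the percent of equal-depth gene reads in 3 gene lists. Erythroid-type cells lay above CD150plus cells in gene reads per spike-in read and in proteasome genes, and below them in stem cell genes and in actin genes, with no overlap of points in any panel. The actin list was made after values were seen.

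Many of all genes differed at least 2-fold in mean level between the 2 groups. How many would do so from variation between single cells alone was not tested. Of 10685 genes with at least 10 equal-depth reads over the 16 cells and reads in at least 3 of them, 3191 (29.9%) had a mean of CPM with 1 CPM added that was at least 2-fold higher in CD150plus cells and 2846 (26.6%) in erythroid-type cells. Averaging log2 values instead of levels turned this balance to 1820 against 5052, and the median of the cells gave 1442 against 5203. Per ERCC read the split was 1627 (15.2%) against 6426 (60.1%). The median log2 fold of all genes, CD150plus over erythroid-type, was 0.03 at equal depth and -1.43 per ERCC read, so values per ERCC read are given beside that shift.

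A stricter description counts genes for which every cell of one group lay above every cell of the other. At equal depth this held for 51 genes (0.477%) in favour of CD150plus cells and for 183 (1.71%) in favour of erythroid-type cells. Per ERCC read it held for 33 (0.309%) and 575 (5.38%), and on both scales for 31 and 181. Without A10, A11 and B4, the CD150plus cells with over 40% unaligned reads, the counts in favour of CD150plus cells were 112 and 73. Of the 51, 26 had no equal-depth read in any erythroid-type cell, and of the 183, 57 had none in any CD150plus cell. Of the 183, 18 were in the erythroid list, 14 in the G2/M list and 3 in the S phase list, which left 148. Some of the 148, such as Arhgap19, also act in cell division. The 4 left-out CD150-negative cells lay with the CD150plus cells in most of these genes. All 4 were above the highest erythroid-type cell in 34 of the 51 genes, and below the lowest erythroid-type cell in 127 of the 183.

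**Figure D2:**
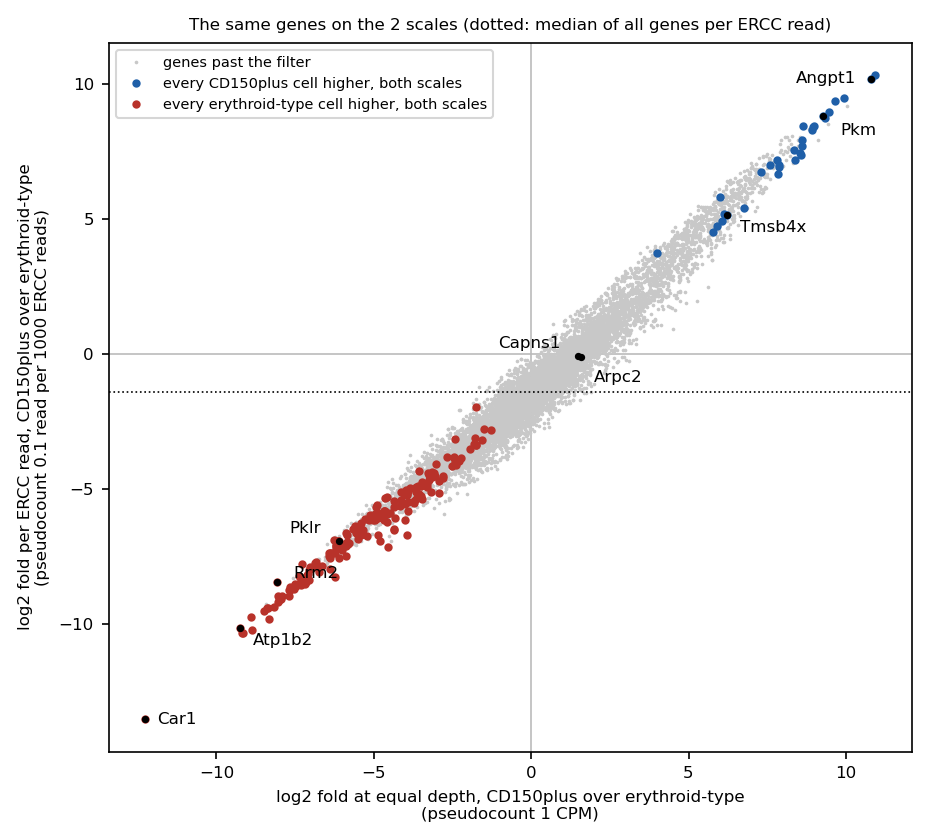
Each grey point is 1 of 10685 genes, with its log2 fold at equal depth on the horizontal axis and per ERCC read on the vertical axis, positive values being higher in CD150plus cells. Coloured points are the 31 and 181 genes without overlap on both scales. The cloud passes below the origin by the median of -1.43, so that genes such as Arpc2 and Capns1 are on the CD150plus side of one axis and just under 0 on the other.

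The cells also differed in how alike they were within a group. Across the 10685 genes, Spearman's rho between 2 erythroid-type cells was 0.662 at the median of 21 pairs, with a range of 0.528 to 0.767. Between 2 CD150plus cells it was 0.319 at the median of 36 pairs, with a range of 0.253 to 0.447. Pairs across the groups had a median of 0.267 over 63 pairs and reached 0.457 for B9 with C6. Left-out cells paired with CD150plus cells had a median of 0.3305 over 36 pairs, and with erythroid-type cells 0.279 over 28 pairs. Pairs share cells, and the erythroid-type cells were selected on a shared trait, their erythroid reads. At the median CD150plus cells also had more unaligned reads, 29.8% against 3.99%, and fewer genes read, 5374 against 8462. The part of these in the values was not tested.

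Outside the erythroid and G2/M lists, 14 of the 15 genes with the largest fold at equal depth in favour of CD150plus cells, among those without overlap on both scales, were Serpina3g, Angpt1, Ctla2a, Lcp1, Coro1a, Pkm, Sept6, Cd93, Alox5ap, Mndal, Ifi203, As3mt, Adgrl4 and Fxyd5. Of the 15, 13 had no equal-depth read in any erythroid-type cell and 11 had none among all of those cells' reads. Of the same 15, 13 had reads in all 4 left-out CD150-negative cells. Angpt1 (chromosome 15, 42424723 to 42676977, GRCm38) ranged from 692 to 3467 CPM with a median of 1159. Its mean of 1779 CPM was at least 2739-fold above the floor of 3 reads over the erythroid-type cells, which is 0.649 CPM. Folds against a floor below also compare group means, not single cells.

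The actin cytoskeleton supplied the next of them. Lcp1 (chromosome 14, 75131101 to 75230842) encodes L-plastin, which bundles actin filaments in white blood cells. It ranged from 31.8 CPM in B4 to 1292 CPM in A11 with a median of 853, and had no read in any erythroid-type cell. The difference in means was at least 1076-fold. Coro1a (chromosome 7, 126699773 to 126707787), the leukocyte coronin that acts on the Arp2/3 complex, ranged from 139 to 1602 CPM with a median of 535 and was likewise at 0, at least 991-fold lower in the mean. Sept6 (chromosome X, 36911326 to 36991794), a septin, ranged from 56.1 to 1354 CPM and was at 0 in the erythroid-type cells. Tmsb4x (chromosome X, 167207093 to 167209315), which encodes the actin monomer binding peptide thymosin beta 4, had the third highest mean level, after Serpina3g and Angpt1, among the 31 genes higher in every CD150plus cell on both scales. It ranged from 308 to 2824 CPM in CD150plus cells and from 0 to 53.03 CPM in erythroid-type cells, a log2 fold of 6.23 at equal depth and 5.14 per ERCC read.

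Others of the 15 have varied roles. Alox5ap, which presents arachidonic acid to the leukotriene-forming lipoxygenase, stayed within 253 to 814 CPM across the CD150plus cells, with erythroid-type cells at 0. Cd93, a C-type lectin receptor of early progenitors and endothelium, ranged from 50 to 1935 CPM. Serpina3g, a serine protease inhibitor, ranged from 253 to 5061 CPM. Adgrl4, an adhesion receptor, reached 1609 CPM in B3 but had 1 read in A11. Serpina3g, Ctla2a, Mndal and Ifi203 have close copies next to them in the genome, so their levels depend on how reads were shared out and are uncertain.

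In favour of the erythroid-type cells the 15 genes were Atp1b2, Ccne1, Arhgap19, Sphk1, Slc38a5, Ptpn13, Rrm2, St3gal5, Aldh1a7, Tmem56, Mns1, Abcb4, Mt2, Cldn13 and Acss1. Of these, 9 had no equal-depth read in any CD150plus cell, and 10 had none in any of the 4 left-out cells. Atp1b2 (chromosome 11, 69599736 to 69605942), a beta subunit of the sodium-potassium pump, ranged from 226 to 1171 CPM with a median of 608 and was at 0 in all 9 CD150plus cells, at least 1199-fold lower in the mean. Ccne1 (chromosome 7, 38097984 to 38107534), the cyclin E1 that drives entry into S phase, ranged from 75.8 to 1571 CPM with 1 read in B9 among CD150plus cells. Every erythroid-type cell was above every CD150plus cell for each of these genes, but the gap was thin for Arhgap19, which had 1 read in D8 and up to 889 CPM elsewhere.

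Several of the 15 act in lipid, nutrient and division pathways. Sphk1, which makes sphingosine 1-phosphate, ranged from 150 to 514 CPM in the 7 cells and had no read at any depth in the 9. Slc38a5, a glutamine carrier, ranged from 127 to 852 CPM, and 1 CD150plus cell, B4, had 6.06 CPM. St3gal5, the GM3 ganglioside synthase, ranged from 66.7 to 702 CPM and was at 0 in the 9 cells. Rrm2, the subunit of ribonucleotide reductase that cells need for DNA synthesis, ranged from 57.6 to 458 CPM against 0. Arhgap19, a GTPase activating protein that acts in cell division, was at 0 in all 9 CD150plus and all 4 left-out cells.

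**Figure D3:**
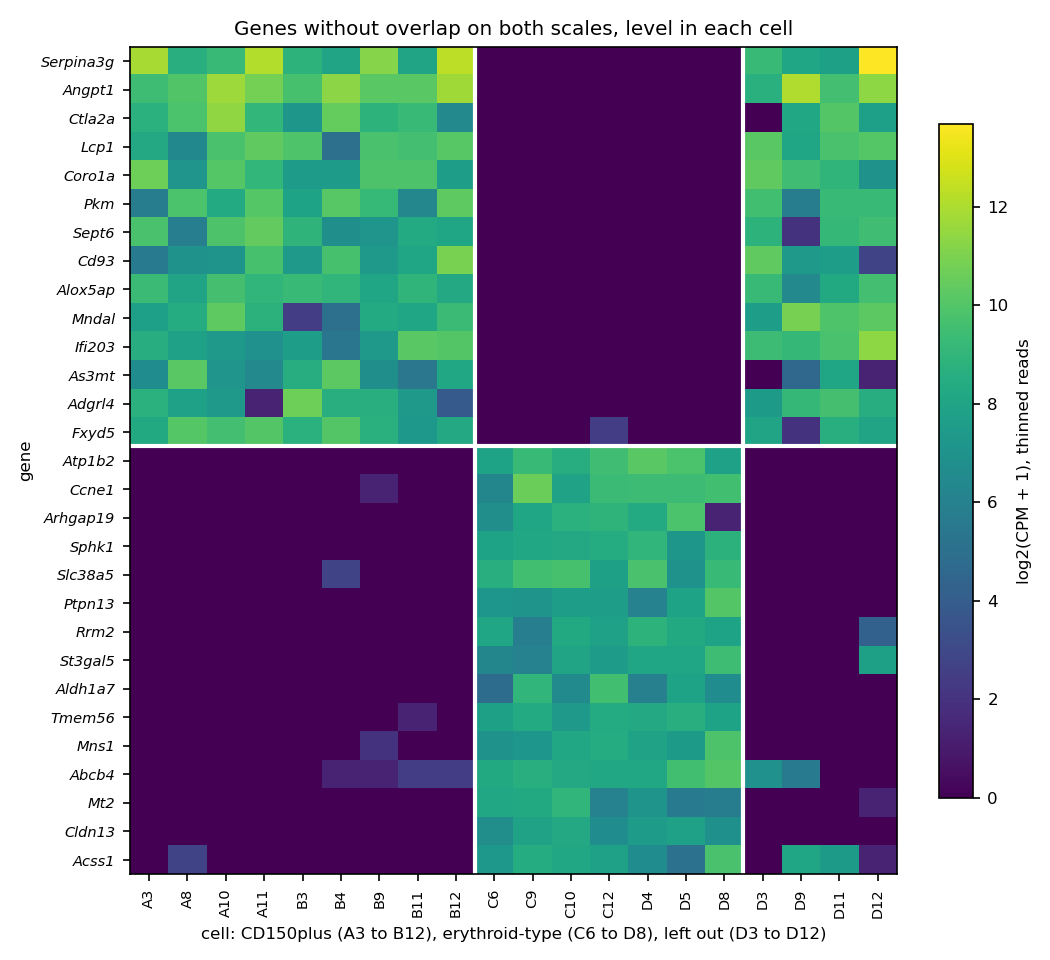
Level of 29 of these genes in each of the 20 cells as log2(CPM + 1) at equal depth, genes in rows and cells in columns, with white lines between CD150plus, erythroid-type and left-out cells. The 14 upper genes are dark in the erythroid-type cells apart from Fxyd5 in C12, and bright in most other cells. The 15 lower genes are bright in the 7 cells apart from Arhgap19 in D8, with Abcb4, Acss1 and St3gal5 also read at over 100 CPM in 1 or 2 left-out cells.

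Some related genes had opposite levels in the 2 groups, and were picked after values had been seen. Pyruvate kinase, the last enzyme of glycolysis, is made from Pkm in most tissues and from Pklr in liver and red cells. Pkm (chromosome 9, 59656368 to 59679375) had 54.5 CPM in A3, 80.3 in B11, 244 in B3, 330 in A10, 568.2 in B9, 898 in A8, 1082 in A11, 1104 in B4 and 1259 in B12, and not 1 of all reads of the 7 erythroid-type cells. Pklr (chromosome 3, 89136142 to 89146784) had 31.8 CPM in C9, 40.9 in C10, 43.9 in D8, 48.5 in C6, 68.2 in D4, 78.8 in C12 and 162 in D5, and no read in any CD150plus or left-out cell. The 2 genes thus split the 16 cells completely and in opposite directions. Against floors of 3 reads over a group, the mean of Pkm was at least 962-fold higher in CD150plus cells and that of Pklr at least 134-fold higher in erythroid-type cells.

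Pklr has 2 annotated starts in the RefSeq table on GRCm38.p6, and the upstream start is the one known from red cell precursors. The 150 bases before that start and before the start of Epor are shown because both genes were read in all 7 erythroid-type cells and both windows hold AGATAA, the core motif of GATA factors, on one strand (capitals). Arhgap19 is shown because its window holds CCAAT 3 times and TTTGAA once, motifs known from promoters of cell division genes (capitals).
Pklr upstream start, chr3:89135992-89136141, plus strand: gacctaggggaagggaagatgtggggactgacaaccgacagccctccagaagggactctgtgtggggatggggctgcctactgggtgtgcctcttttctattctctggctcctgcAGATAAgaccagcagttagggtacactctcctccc
Epor, chr9:21963577-21963726, minus strand: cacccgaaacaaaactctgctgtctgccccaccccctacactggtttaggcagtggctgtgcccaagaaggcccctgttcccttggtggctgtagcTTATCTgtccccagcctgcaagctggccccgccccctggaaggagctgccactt
Arhgap19, chr19:41802085-41802234, minus strand: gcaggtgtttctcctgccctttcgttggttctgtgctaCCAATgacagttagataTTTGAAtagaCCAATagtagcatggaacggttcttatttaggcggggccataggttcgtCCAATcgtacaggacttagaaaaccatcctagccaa
In Pklr the motif begins 35 bases before the start, and in Epor its reverse complement TTATCT begins 54 bases before it. The downstream Pklr start had no AGATAA on either strand in the 250 bases before it. AGATAA or its complement lies in 9.99% of the 32851 windows of 250 bases in that table, CCAAT in 33.9% and TTTGAA in 16.0%. Fewer than 80% of the genes without overlap had an entry (31 of 50 symbols and 141 of 181), so motif shares of the gene sets were not compared. A match describes these letters only.

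Of the blood cell GATA factors, Gata1 was used by the rule, as was Epor, so their high levels in the erythroid-type cells were fixed by the selection, while Gata2 and Spi1 were not used. Gata2, the factor of stem cells, had reads in all 9 CD150plus cells, with 80.3 to 1382 CPM and a median of 203, and in 3 of 7 erythroid-type cells, up to 27.3 CPM. Gata1, the factor of red cells and platelets, had 30.3 to 639 CPM with a median of 315 in the 7 erythroid-type cells, and reads in only A8 (50 CPM) and B3 (120 CPM) among CD150plus cells. Gata2 did not overlap between groups at equal depth, while Gata1 overlapped through A8 and B3, both of which lay above D8 (30.3 CPM). Spi1, which encodes PU.1, the white cell factor that opposes GATA1, ranged from 3.03 to 200 CPM in CD150plus cells and was at 0 in all 7 erythroid-type cells. Among receptors, Epor had 3.03 to 80.3 CPM in the 7 cells and reads in 3 of 9 CD150plus cells, up to 4.55 CPM, so that the ranges overlapped. Tal1 and Ikzf1, listed as stem cell factors but also active in red cell precursors, were higher in erythroid-type cells, by log2 folds of -1.66 and -1.64.

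**Figure D4:**
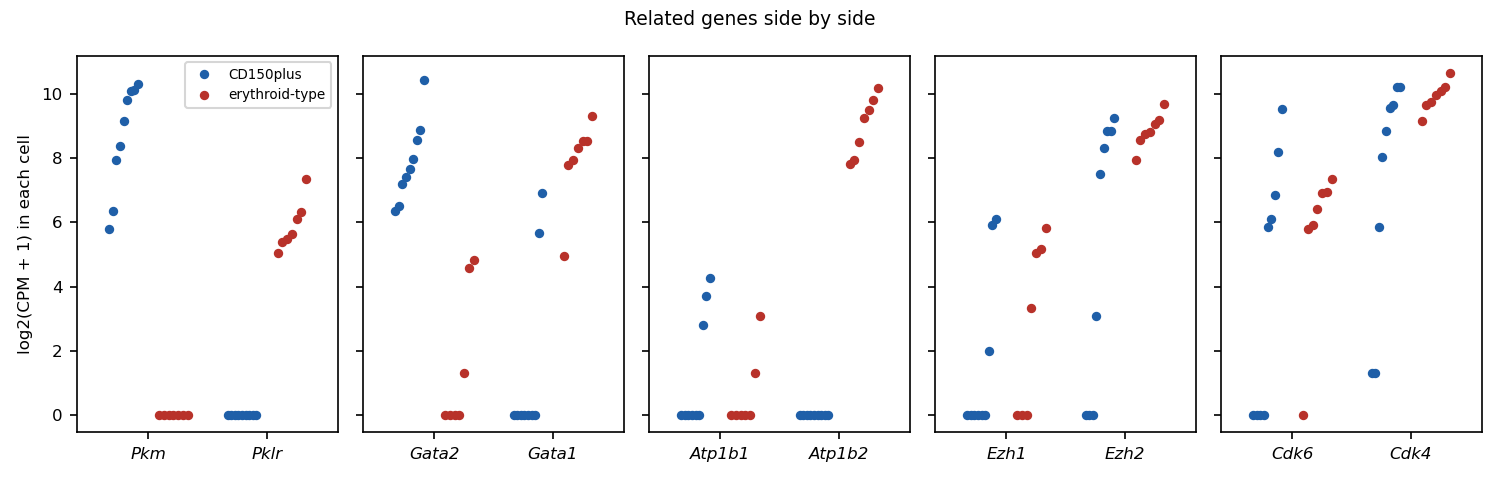
Level of 5 pairs of related genes in each cell as log2(CPM + 1) at equal depth, with CD150plus cells in blue and erythroid-type cells in red. Pkm with Pklr change sides between the groups, Gata2 with Gata1 do so with a few cells overlapping in Gata1, and the other pairs do not show a crossing of both genes.

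Not every related pair crossed. Of the sodium-potassium pump subunits, Atp1b2 was at 0 in CD150plus cells while Atp1b1 was low in both groups, at means of 4.04 and 1.30 CPM, an order that turned with letter B alone. Ezh2, the polycomb methyltransferase of dividing cells, was 2.18-fold higher in erythroid-type cells, and Ezh1, often described as its counterpart in resting cells, had means of 14.5 CPM in CD150plus and 18.8 CPM in erythroid-type cells. Cdk4 was 1.94-fold higher in erythroid-type cells, short of the 2-fold mark, and Cdk6 had means of 141 CPM in CD150plus and 85.9 CPM in erythroid-type cells. The Cdk6 value rested on B3, since without that cell its log2 fold of 0.71 became -0.37. Cyclin D2, from Ccnd2, ranged from 3.03 to 1171 CPM in CD150plus cells and was read in 2 of 7 erythroid-type cells, whereas Ccnd3 was alike in the means, at 148.7 and 142 CPM.

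Genes of signalling to actin were also far apart in level. Elmo1 and Dock2 encode an adaptor and an exchange factor that together switch on RAC in white blood cells. Elmo1 had reads in 8 of 9 CD150plus cells, with a median of 574 and up to 2332 CPM, and none at equal depth in the 7 erythroid-type cells. Dock2 had reads in 8 of 9, with a median of 333 CPM, and none in the 7. Arhgef6, an exchange factor for RAC and CDC42, had reads in 8 of 9 at a median of 233 CPM and none in the 7. B4 was the cell without reads for Elmo1 and Dock2 and B3 the one for Arhgef6, so by the rule on overlap none of these 3 genes stood apart.

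The genes were then read in 49 lists of pathways and cell types, one of them, on actin, added after values were seen. In any list a gene read in only one of the groups could pass the filter, so counts of members are descriptions. The actin list had 78 entries. Of its 65 members past the filter, 33 were at least 2-fold higher in CD150plus cells and 4 in erythroid-type cells. Among all genes these shares were 29.9% and 26.6%. In 5 members every CD150plus cell was above every erythroid-type cell, beside 0.477% of all genes. The median log2 fold was 1.10 at equal depth but -0.78 per ERCC read, which turned the sign while staying above the -1.43 of all genes. The list was made after values were seen, and 9 of the 65 had reads in CD150plus cells alone, Lcp1, Coro1a and Sept6 among them. These passed the filter through CD150plus cells, so the counts are no support for a difference of the list. Without B3 the median at equal depth was 0.81. Its share of gene reads was 1.27% to 2.17% in CD150plus cells, 0.729% to 1.01% in erythroid-type cells and 1.45% to 1.97% in the left-out cells. With the 4 CD150plus cells of letter A alone the counts were 26 and 12. Among the 4 on the erythroid side, Myh10, a nonmuscle myosin heavy chain used in cell division, had a median of 247 CPM in erythroid-type cells against reads in 2 of 9 CD150plus cells, and Cnn3, a calponin, a median of 106 CPM against reads in 1 of 9.

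Many abundant genes changed side between the scales. Of the genes 2-fold higher in CD150plus cells at equal depth, 748 were lower in them per ERCC read, and 1626 were 2-fold higher on both scales. The 4 most read of the 748 were Arpc2, Capns1, Ddx17 and Sdcbp. Arpc2, a subunit of the Arp2/3 complex that branches actin, had 411 to 1983 CPM in CD150plus cells and 173 to 548 CPM in erythroid-type cells, 3.02-fold at equal depth and a log2 fold of -0.11 per ERCC read. Sdcbp, the syntenin scaffold, gave 2.05-fold and -0.20. Capns1, the small calpain subunit, gave 2.80-fold and -0.09, and fell short of 2-fold at equal depth without A10 (log2 fold of 0.96). For such genes a larger share of the RNA went with about the same reads per spike-in read, whereas Coro1a, Lcp1 and Pkm lay on the CD150plus side of both scales.

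Glycolysis and respiration differed in their lists. Of 29 glycolysis and glucose transport genes, 17 were higher in CD150plus cells and 4 in erythroid-type cells, beside 29.9% and 26.6% of all genes, with a median of 1.21 at equal depth and -0.38 per ERCC read. With letter A alone the counts were 12 and 9 and the median 0.30, and without B3 the median was 0.89. A gene read in CD150plus cells alone could pass the filter, so the counts support nothing by themselves. The share of gene reads in this list overlapped, at 0.310% to 0.663% in CD150plus cells and 0.278% to 0.332% in erythroid-type cells. In the left-out cells it was 0.249% to 0.458%. Pfkp, the platelet form of phosphofructokinase, had reads in 8 of 9 CD150plus cells, at a median of 105 CPM, and in 3 of 7 erythroid-type cells, up to 3.03 CPM. Ldhb, a lactate dehydrogenase subunit, was read in 6 of 9 cells, up to 768 CPM, and in 1 of 7. Pfkl, the liver form of phosphofructokinase, was 11.2-fold higher in erythroid-type cells, and Slc16a1, a lactate carrier, 16.4-fold. Txnip, which curbs glucose uptake, had 12.1 to 2921 CPM in CD150plus cells and 0 to 124 CPM in erythroid-type cells.

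The list of oxidative phosphorylation genes went the other way. None of its 73 members was 2-fold higher in CD150plus cells and 31 were in erythroid-type cells, beside 29.9% and 26.6% of all genes, and the median log2 fold was -0.83 at equal depth and -2.61 per ERCC read. Its share of gene reads was 0.689% to 1.43% in CD150plus cells, 1.64% to 2.65% in erythroid-type cells and 0.478% to 0.95% in the left-out cells. Cyc1, the cytochrome c1 of complex III, ranged from 367 to 1104 CPM in erythroid-type cells and from 0 to 289 CPM in CD150plus cells. Ndufa9, of complex I, had 86.4 to 574 CPM against reads in 2 of 9 cells, up to 68.2 CPM. Reads of the mitochondrial genome itself overlapped between the groups, at 0.643% to 1.89% in erythroid-type cells and 0.128% to 1.64% in CD150plus cells.

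Proteasome, translation and ribosome biogenesis genes had more members higher in erythroid-type cells than in CD150plus cells, where 26.6% and 29.9% of all genes were. Other lists of protein breakdown were nearly even at equal depth. They had 13 against 12 of 43 ubiquitin ligases and deubiquitinases, and 15 against 14 of 50 autophagy and lysosome genes. Per ERCC read the counts were 28 against 5 and 35 against 4, beside 60.1% and 15.2% of all genes. Of 42 proteasome genes, 24 were higher in erythroid-type cells and 0 in CD150plus cells, with a median of -1.19 and shares of 1.16% to 1.48% against 0.144% to 0.929%. Psmd2, a subunit of the regulatory particle, ranged from 123 to 700 CPM against 0 to 83.3 CPM. Of 60 translation factor and tRNA synthetase genes, 28 were higher in erythroid-type cells and 1 in CD150plus cells, Eif4g3, whose log2 fold of 1.86 turned to -0.39 per ERCC read and to -0.72 with letter A alone. Hars, the histidyl-tRNA synthetase, ranged from 312 to 633 CPM against 0 to 126 CPM, and Eif2b1, of the exchange factor for the initiation factor eIF2, from 98.5 to 692 CPM against 0 to 59.1 CPM. Of 63 ribosome biogenesis genes, 32 were higher in erythroid-type cells and 1 in CD150plus cells, and of 27 genes of heme synthesis and iron, 17 and 0. Tfrc, the transferrin receptor that brings in iron, had 344 to 1230 CPM in the 7 cells and up to 126 CPM in the 9.

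**Figure D5:**
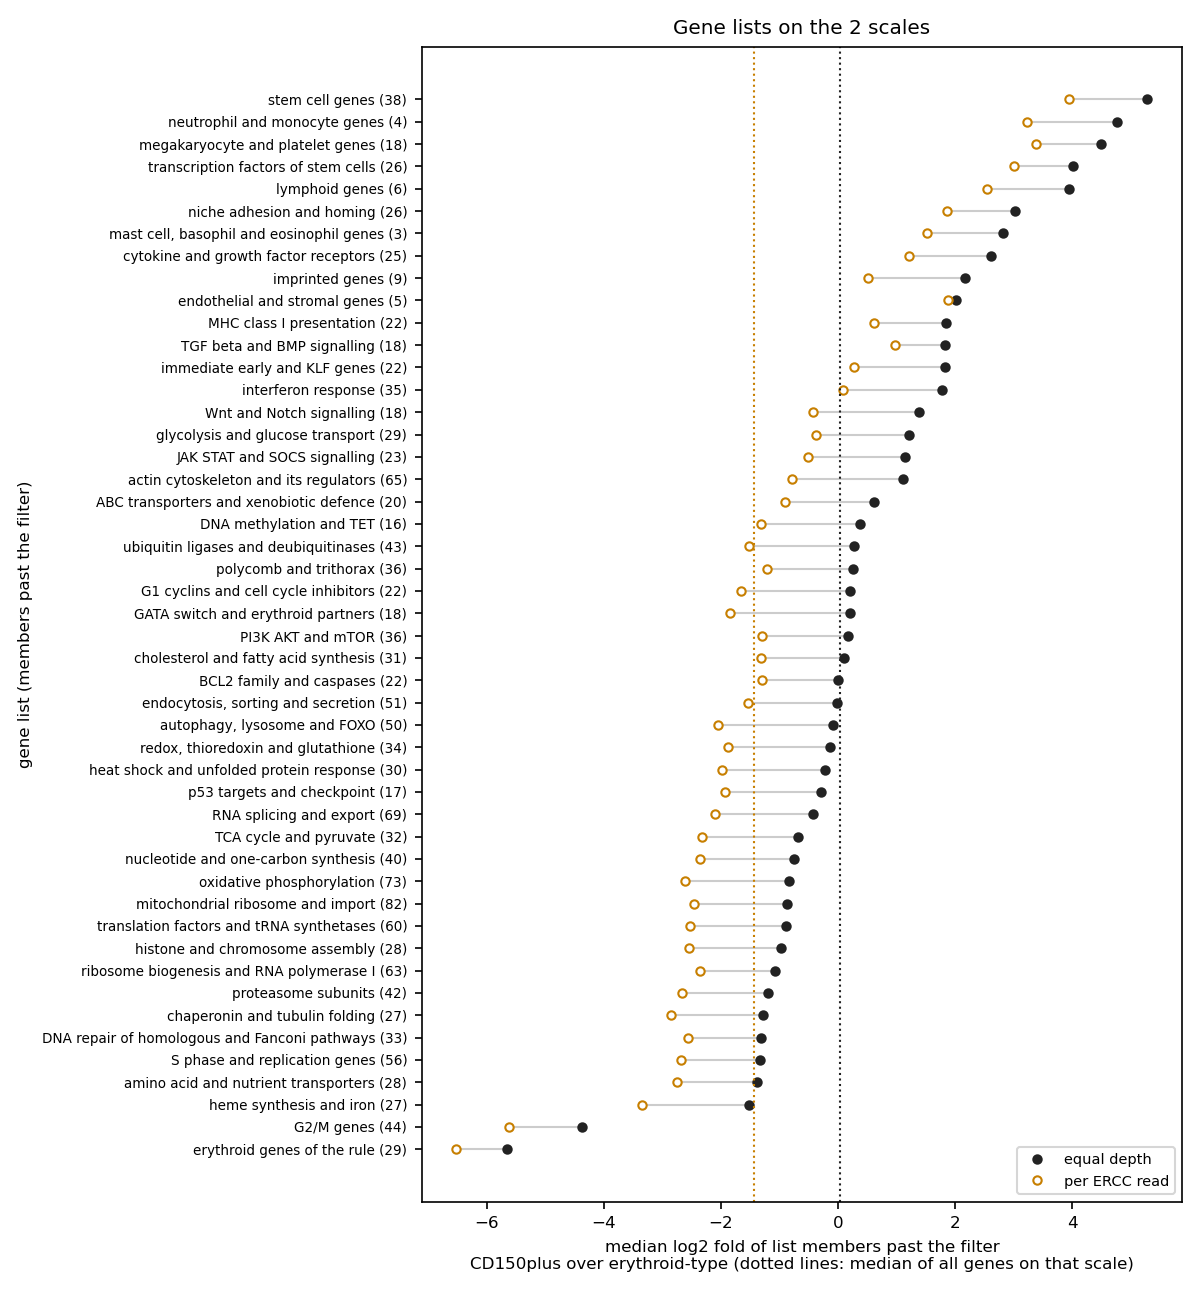
Median log2 fold of the members past the filter for 48 gene lists, filled points at equal depth and open points per ERCC read, with the number of members in brackets and dotted lines at the medians of all genes. Stem cell genes are at the top with 5.28 and 3.94 (4.34 at equal depth without B12), erythroid genes at the bottom with -5.65 and -6.51. The actin and glycolysis lists are among those whose filled point is above 0 and whose open point is below it.

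Across the 49 lists, 8 had a share of gene reads that was higher in every CD150plus cell than in every erythroid-type cell, and 8 the reverse. The former included stem cell genes, stem cell transcription factors, cytokine receptors, megakaryocyte, endothelial, imprinted and actin genes. The lowest CD150plus and highest erythroid-type shares were 0.691% and 0.192% for stem cell genes. They were close for megakaryocyte genes, at 0.0862% (B9) and 0.0836% (D8), and for imprinted genes, at 0.0297% and 0.0239%. Endothelial shares were small, at 0.0112% and 0.0061%. The left-out cells had 1.16% to 1.79% for stem cell genes, 0.986% to 1.20% for stem cell transcription factors and 1.45% to 1.97% for actin genes. These, like their cytokine receptor and endothelial shares, lay above all erythroid-type cells. Their megakaryocyte and imprinted shares, 0.0298% to 0.168% and 0.0195% to 0.0512%, reached into the range of erythroid-type cells. The 8 lists with every erythroid-type cell higher were the erythroid, G2/M, heme and iron, heat shock, respiration, translation, proteasome and chaperonin genes. Heat shock genes had a median log2 fold of only -0.22 at equal depth. Of 30 past the filter, 11 were 2-fold higher in erythroid-type cells and 6 in CD150plus cells, beside 26.6% and 29.9% of all genes. The erythroid list chose the cells, so its separation was set by the rule. The actin list was made after values were seen, and the other lists with earlier results of these data known, so these splits are descriptions. S phase genes were not among them, as their share reached 2.05% in B9 and 1.56% in B4, within the 1.37% to 2.39% of erythroid-type cells, while G2/M genes reached only 0.187% in CD150plus cells against 0.590% to 1.23%. Medians were above 0 at equal depth and below 0 per ERCC read in 12 lists.

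The stem cell and megakaryocyte lists were known from earlier results to be higher in CD150plus cells. Of 40 listed stem cell genes, 38 passed the filter and 37 were at least 2-fold higher in CD150plus cells, beside 29.9% of all genes. Per ERCC read 31 were, beside 15.2% of all genes. A gene read in CD150plus cells alone could pass the filter, so these counts of stem cell genes support nothing by themselves. Ifitm1, an interferon-inducible membrane protein, had reads in 8 of 9 cells up to 4067 CPM and none in the 7. Hlf, a stem cell transcription factor, ranged up to 1097 CPM in CD150plus cells and up to 3580 CPM in the left-out cells. Tie1, an endothelial and stem cell receptor kinase, ranged from 9.09 to 664 CPM in CD150plus cells against 0. Among megakaryocyte genes, Nrgn, a calmodulin-binding protein of platelets and neurons, ranged from 10.6 to 650 CPM and was at 0 in erythroid-type cells, and Pf4 had reads in 5 of 9 cells.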

How the data were processed

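Single cells were profiled by Quartz-Seq. The deposited values are whole-number counts of reads per Ensembl gene with no normalization, made by the authors with HTSeq on GRCm38 according to the submitters' processing notes, which also list R 3.0.2. For the aligner, annotation release and strand setting, a statement was not given in the sources used here. Every file held 38561 genes and 5 summary rows, and a series table gave the same counts for 18464 genes plus 51 ERCC rows. Summary and ERCC rows stayed out of totals, and symbols were matched for 36639 genes.

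Cells were thinned without replacement to 660007 gene reads. Log2 folds compare group means with a pseudocount of 1 CPM, or of 0.1 read per 1000 ERCC reads, and understate low genes. Genes were kept at 10 thinned reads and 3 cells, and called at a log2 fold of 1. Intervals (95%, exact) and floors of 3 reads cover counting error only, as reads are PCR copies. Genes read on both strands or from near-identical copies cannot be told apart.

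The members and gene lists were chosen with earlier results of these data known. Named genes were the markers and gate genes, in each direction the 15 with the largest fold among genes without overlap on both scales outside the erythroid and G2/M lists, up to 3 members per list and direction with the largest fold at 20 CPM or more and reads in at least 50% of the cells of the higher group, the 4 most read genes 2-fold higher in CD150plus cells at equal depth but lower per ERCC read, and the 4 most read that were higher and without overlap on both scales. Clone and predicted-gene names were passed over, and a few genes and 1 gene list are not reported here. Alternatives were other scalings, pseudocounts, filters, averages, a log2 fold of 2, each cell or letter left out, and, added after seeing the data, the actin list, 14 pairs of related genes and the omission of 3 cells with over 40% unaligned reads. Coordinates are from GENCODE M21 and promoters from RefSeq, GRCm38.p6. The steps were tested on simulated data. Python 3.11.15, numpy 2.4.6, pandas 2.3.3 and scipy 1.17.1 were used.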

Additional observations from a re-analysis of the deposited data

Results flagged for a closer look

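In 13 of 108 checks of a quantity within a group, the highest cell stood apart from the others by more of the group's range than Dixon's 95% critical value. That value flags about 1 in 20 for independent, normally distributed values. Read shares of single cells over related lists need not be either, so an excess over chance cannot be read from the 13. Values are percent of equal-depth gene reads unless said otherwise, and no cause was tested.

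The erythroid-type cell D8 had 16.84% of its reads unaligned, against 2.487% to 8.546% in the other 6. It also stood apart in megakaryocyte and platelet genes, at 0.08364% against 0.003788% to 0.02773%, and in autophagy and lysosome genes, at 0.6961% against 0.295% to 0.3812%.

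The erythroid-type cell C9 stood apart in 4 lists. Heme synthesis and iron genes held 2.024% in it against 1.126% to 1.503% in the others, lymphoid genes 0.02106% against 0.0004545% to 0.001515%, interferon genes 0.1942% against 0.08182% to 0.1285%, and MHC class I presentation genes 0.9295% against 0.3% to 0.5439%. D4 stood apart in mast cell, basophil and eosinophil genes, at 0.04848% against 0.006818% to 0.02333%.

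Among CD150plus cells, B3 stood apart in niche adhesion genes, at 0.6594% against 0.08091% to 0.3589%, in mast cell, basophil and eosinophil genes, at 0.4021% against 0.04606% to 0.173%, and in endothelial genes, at 0.2058% against 0.01121% to 0.05924%. B3 was also the CD150plus cell with reads of Cd48. B11 stood apart in erythroid genes, at 0.3356% against 0.04318% to 0.16%, and A10 in MHC class I presentation genes, at 2.914% against 0.8383% to 1.828%.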

How the results depend on the processing

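Leaving out any 1 cell kept each count of genes over all genes within 1.5 times its value. Other settings moved counts, and the cause was not tested. Genes 2-fold higher in CD150plus cells per ERCC read numbered 2606 with no filter, 991 when genes needed 50 reads in 5 cells, 810 by the median of the cells and 2702 with letter D alone for erythroid-type cells. At equal depth the split was 1820 against 5052 by the mean of log2 values and 1442 against 5203 by the median of the cells. A log2 fold of 2 gave 1926 against 1401, and 3970 in favour of erythroid-type cells per ERCC read. Counts of genes without overlap rose with fewer cells. Letter C alone gave 389 at equal depth and 1285 per ERCC read in favour of erythroid-type cells. In the order CD150plus and erythroid-type at equal depth, then both per ERCC read, letter D alone gave 80, 329, 53 and 977, letter A alone 161, 611, 96 and 1224, and letter B alone 117, 311, 69 and 968. Omitting cells with over 40% unaligned reads gave 112 and 73 in favour of CD150plus cells.

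Among lists and genes past a log2 fold of 1 in either direction, signs turned as follows, with values per ERCC read for lists only. Smaller medians also turned, such as DNA methylation genes to -0.75 and PI3K genes to -0.40 with letter A alone, and 12 lists in all turned per ERCC read. With no filter, the mast cell list had -0.52. By the mean of log2 values, JAK STAT genes had -0.71, Mdm2 -1.67, Brca2 -1.21, Prps2 -0.011, Phgdh -1.06 and Nop14 -1.08. By the median of the cells, Wnt and Notch genes had -0.081, Mdm2 -0.41, Brca2 -0.065, Prps2 -0.15, Phgdh -0.10 and Nop14 -0.62. Letter C alone gave Gnas 0.54, whose transcripts overlap, and letter D alone gave Usp9x 1.00. Letter A alone gave Prps2 -1.41, Phgdh -2.06, Nop14 -1.43, Eif4g3 -0.72 and Slc2a3 -0.26, and letter B alone Cdkn2d -1.73, Mdm2 -0.065 and Atp1b1 -1.20. Leaving out 1 cell at a time, Myc ran from -0.016 (without A3) to 2.31, Mdm2 from -0.14 (without A10) to 1.47, and Cdkn2d from -0.70 (without A11) to 3.4998. Cdk6, at 0.71, had -0.37 without B3. Per ERCC read, the 4 of the 12 past 1 at equal depth turned: JAK STAT genes had -0.51, Wnt and Notch genes -0.43, glycolysis -0.38 and actin -0.78. Without cells with over 40% unaligned reads, Cdkn2d had -1.41, Mdm2 -0.33, Slc30a1 -0.54 and Atp1b1 -0.19.

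Depth limits low genes: a gene at 0 over the group allows up to 0.505 CPM in CD150plus and 0.649 CPM in erythroid-type cells. No paired analysis was possible because the replicate numbers only name cells.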

Other observations

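Immune genes outside the lineage lists were counted beside all genes, of which 29.9% were at least 2-fold higher in CD150plus cells and 26.6% in erythroid-type cells. A gene read in CD150plus cells alone could pass the filter, so these counts support nothing by themselves. Of 35 interferon response genes, 24 were at least 2-fold higher in CD150plus cells and 5 in erythroid-type cells, with a median log2 fold of 1.78 at equal depth and 0.09 per ERCC read, the latter -0.20 without the CD150plus cells with over 40% unaligned reads. Of 22 MHC class I presentation genes, 13 were higher in CD150plus cells and 3 in erythroid-type cells, with medians of 1.84 and 0.61. The 0.61 became -0.13 without those cells, -0.19 with letter B alone and -0.09 with letter C alone. Psmb8, the immunoproteasome subunit, ranged from 133 to 1723 CPM in CD150plus cells and was read in 3 of 7 erythroid-type cells, up to 135 CPM, while the 42 proteasome genes as a list leaned the other way. Close copies make the levels of single class I genes uncertain.

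Of 82 mitochondrial ribosome and import genes, 38 were higher in erythroid-type cells and 1 in CD150plus cells, and of 28 amino acid and nutrient transporters, 15 and 3, beside 26.6% and 29.9% of all genes. Mthfd1, an enzyme of one-carbon metabolism, ranged from 494 to 1638 CPM in erythroid-type cells and from 0 to 361 CPM in CD150plus cells. E2f4, a cell cycle transcription factor, ranged from 400 to 742 CPM against 0 to 197 CPM.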
